A study of Mus musculus with 13 samples.

Results

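The 9 genes described here mark circulating myeloid cells other than microglia: S100a8, S100a9, Retnlg, Ngp, Camp and Ltf are genes of neutrophils, and Ly6c2, Ccr2 and Plac8 are genes of monocytes. They were taken by symbol from a table of 55487 genes, and all 9 were found. The sequenced RNA came from cells that magnetic beads against CD11b, a surface protein of myeloid cells, had pulled from whole brains of mice at postnatal day 4, labelled as microglia, the macrophages that live in brain tissue. The libraries came from pups of dams that underwent maternal immune activation (MIA; 5 retained libraries, and MIA 6 and MIA 7, whose titles mark them as excluded) and from control pups (CON; 5 retained libraries, and CON 6, marked as excluded). The series text gives an age span around that day, and the sources used here do not give the agent, the strain, the sex or the reason for the exclusions. Per the labels, the pups of both groups were drained of blood by decapitation and not perfused, and the meninges were removed.

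Neutrophils and monocytes arise in the bone marrow and, in the newborn, also in the liver and spleen. Both carry CD11b on their surface, so a CD11b bead selection does not separate them from microglia. A neutrophil fills its secondary granules with Ngp, Camp and Ltf while it is still an immature cell of the marrow, and mature neutrophils carry abundant S100a8, S100a9 and Retnlg transcripts. Classical monocytes carry Ly6C on their surface and leave the marrow through the chemokine receptor CCR2.

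No gene of the 9 passed the threshold for a difference between MIA and CON, while 10.3% of all 15511 genes tested did, 5.75% as higher and 4.58% as lower in MIA. The genes held a small part of the counts in every library. Counts ran from 14.2 for Ly6c2 in MIA 2 to 1339 for S100a8 in CON 5, in libraries of 25387055 to 35593541 counts. All 9 passed the filter on low counts, and 8 of the 9 had a negative log2 fold change, MIA over CON, against 51.1% of all genes tested. The median log2 fold change of the 9 was −0.51, beside −0.0085 over all genes tested. The lowest values were those of Ly6c2, S100a8 and S100a9, which were also the members past an unadjusted p of 0.05, as 3518 of all genes tested were. The share of negative values depended on CON 5. Without it, the log2 fold changes of Ngp, Camp and Ccr2 turned positive, at 0.18, 0.20 and 0.066, and that of Ltf was 0.23. The threshold was a Benjamini-Hochberg adjusted p of 0.05 over all genes in edgeR's quasi-likelihood test of the 10 retained libraries. The labels do not say whether libraries of a group came from separate animals, so the tests measure the spread between these libraries. In such bulk RNA, fewer cells of a type and less RNA per cell cannot be told apart.

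**Figure D1:**
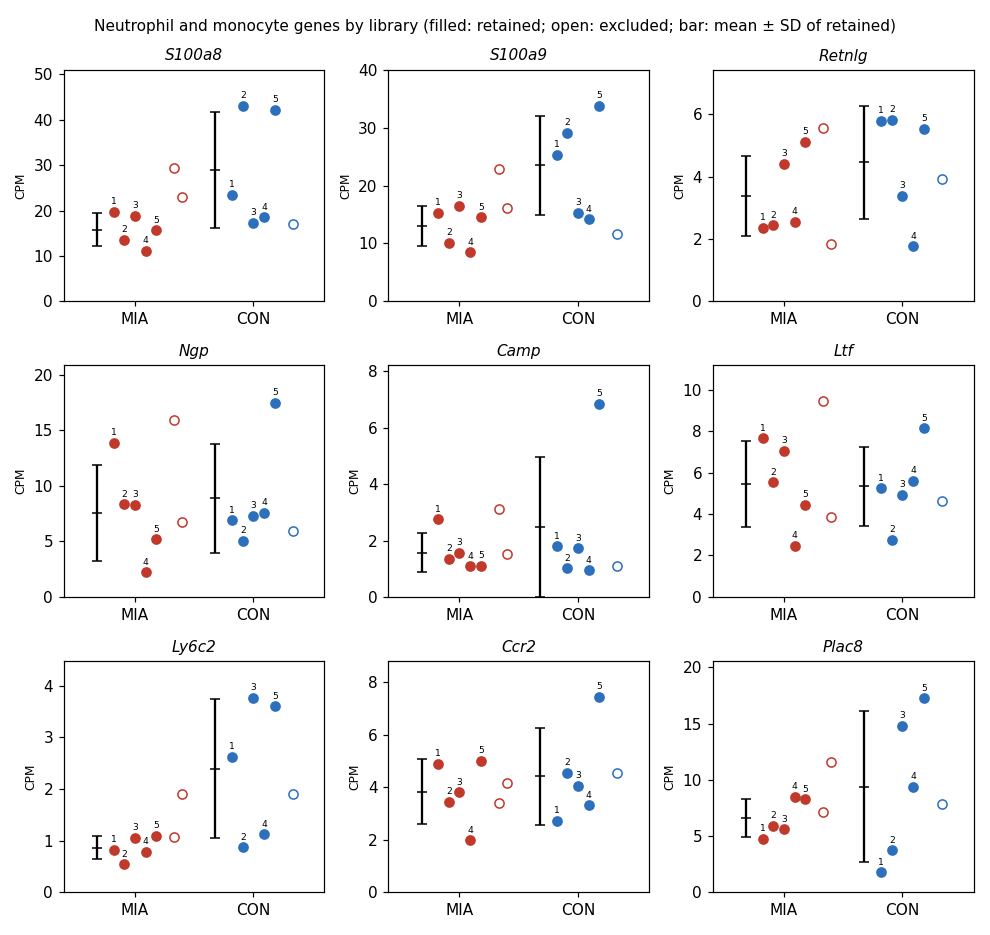
Level of each of the 9 genes in CPM (expected counts scaled to a common library size) in the MIA and CON libraries; filled points are retained libraries with their replicate number, open points are excluded ones, and the bar is the mean ± SD of the 5 retained libraries, cut at 0 for Camp in CON. The highest point is in CON in every panel except that of Ltf, where it is the excluded MIA 6. The MIA and CON points overlap in every panel.

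S100a8 and S100a9 encode calcium-binding proteins that pair as calprotectin, a metal-binding complex that fills the neutrophil cytosol and is a ligand of the receptor TLR4. Their levels were lower in the MIA libraries by 0.87 ± 0.28 and 0.85 ± 0.26 on the log2 scale (SE), which did not pass (edgeR adjusted p = 0.0765 and 0.0635). Their upstream sequences are shown because the pair lies on 1 chromosome and varied together across libraries. Each is the RefSeq promoter of GRCm38.p6, 250 bases before to 50 bases after the start site, and capitals mark matches on either strand to the letters TTGCNNAA, which resemble the site of the C/EBP factors of granulocytes, or GAGGAAG, which resemble that of the myeloid factor PU.1.
S100a8 promoter (chr3:90668821-90669120, + strand): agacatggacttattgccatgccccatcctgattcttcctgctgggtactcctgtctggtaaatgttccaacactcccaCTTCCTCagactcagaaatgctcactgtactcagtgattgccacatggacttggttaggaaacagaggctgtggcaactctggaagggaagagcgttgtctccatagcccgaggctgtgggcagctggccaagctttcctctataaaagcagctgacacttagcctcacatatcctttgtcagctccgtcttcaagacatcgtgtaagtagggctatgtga
S100a9 promoter (chr3:90695672-90695971, - strand): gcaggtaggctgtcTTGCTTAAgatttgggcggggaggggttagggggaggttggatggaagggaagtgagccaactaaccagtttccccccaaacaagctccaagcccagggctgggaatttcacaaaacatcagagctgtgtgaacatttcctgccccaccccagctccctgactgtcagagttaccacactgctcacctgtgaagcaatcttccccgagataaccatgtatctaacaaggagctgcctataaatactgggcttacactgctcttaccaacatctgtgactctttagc
The S100a8 promoter held GAGGAAG on the opposite strand, starting at position -171 from the start site. The S100a9 promoter held TTGCTTAA at position -236. Of 32851 RefSeq promoters of this length, 10.8% held TTGCNNAA and 13.6% GAGGAAG.

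S100a8 had 19.8, 13.5, 18.9, 11.2 and 15.7 CPM in MIA 1 to MIA 5, against 23.5, 43.1, 17.4, 18.5 and 42.3 CPM in CON 1 to CON 5. CON 2 and CON 5 stood far above the other retained libraries, 3 of the 5 MIA libraries lay below every control, and the groups overlapped. S100a9 had 15.3, 10.1, 16.5, 8.45 and 14.5 CPM in MIA, against 25.3, 29.0, 15.2, 14.2 and 33.7 CPM in CON. Here CON 1, CON 2 and CON 5 were high, and CON 3 and CON 4 lay within the range of the MIA libraries. S100a8 averaged 15.8 ± 3.60 CPM in MIA and 28.9 ± 12.7 CPM in CON (SD, n = 5 each), and S100a9 averaged 12.98 ± 3.49 CPM in MIA and 23.5 ± 8.57 CPM in CON. The 95% intervals of the 2 log2 fold changes, −1.48 to −0.26 and −1.43 to −0.28, lay below 0, but neither gene passed after adjustment over all genes.

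The ratio of S100a8 to S100a9 covered a narrower range than their levels. It ran from 1.08 to 1.33 in the MIA libraries and from 0.93 to 1.48 in the CON libraries. The excluded libraries MIA 6 and MIA 7 had 29.3 and 23.1 CPM of S100a8, above all 5 retained MIA libraries, and CON 6 had 17.0 CPM, below all 5 retained controls. S100a9 had 22.9 CPM in MIA 6, above all 5 retained MIA libraries, and 11.6 in CON 6, below all 5 retained controls. MIA 7, at 16.04 CPM, lay within the retained MIA range, below MIA 3 at 16.5 CPM. With all 13 libraries, where 4.22% of all genes passed, the log2 fold change of S100a8 was −0.52 ± 0.28 (SE; edgeR adjusted p = 0.327) and that of S100a9 −0.54 ± 0.27 (SE; edgeR adjusted p = 0.295). In DESeq2 on the 10 retained libraries both passed (adjusted p = 0.0107 and 0.0106), where 6.46% of all genes passed as lower. Both also passed in edgeR without CON 3 (adjusted p = 0.0399 for each) and without CON 4 (adjusted p = 0.0494 and 0.0296), where 3.20% and 3.80% of all genes passed as lower. Neither passed when any other single library was left out.

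The microglial genes were lower in the retained MIA libraries as well. All 10 microglial markers had a negative log2 fold change, down to −0.64 (Siglech). Of them 9 passed as lower, where 4.58% of all genes did. The summed level of the 10 was 15112 to 19477 CPM in the MIA libraries against 22998 to 29497 CPM in the CON libraries. Set against Csf1r, the growth factor receptor of microglia, S100a8 stood at 2.67 to 3.86 CPM per 1000 CPM of Csf1r in MIA (median 3.62). In CON this ratio was 2.60 to 6.21 (median 3.18), and CON 2 and CON 5, at 5.60 and 6.21, lay above the MIA range. The ratio of S100a9 to Csf1r was 2.01 to 3.35 in MIA (median 2.99) and 2.28 to 4.96 in CON (median 3.29). With all 13 libraries 0 of the 10 microglial markers passed, and the excluded libraries had sums of 22173 CPM in MIA 6, 22767 in MIA 7 and 20217 in CON 6. Of 9 endothelial markers, all 9 rose in the retained libraries, with a summed level of 2485 to 4199 CPM in MIA against 845 to 1381 CPM in CON. The part of these shifts in the levels of the neutrophil and monocyte genes was not tested.

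**Figure D2:**
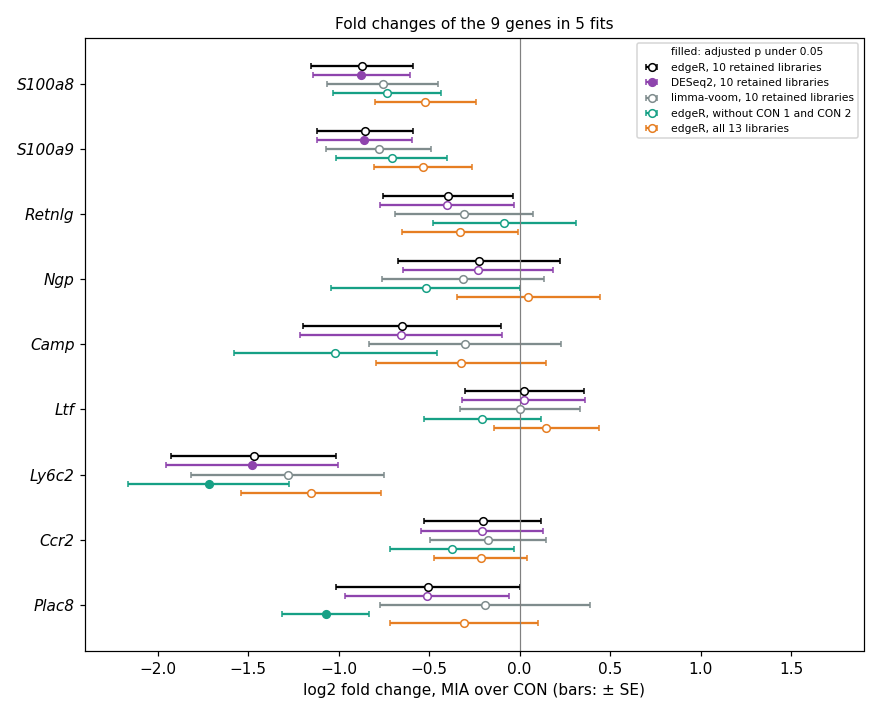
Log2 fold change of each gene, MIA over CON, with its SE in 5 fits; a filled point has an adjusted p under 0.05. All genes except Ngp and Ltf lie below 0 in all 5 fits. S100a8, S100a9 and Ly6c2 are filled under DESeq2, and Ly6c2 and Plac8 are filled without CON 1 and CON 2. No gene is filled with all 13 libraries.

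Retnlg encodes a resistin-like protein secreted by mature mouse neutrophils. It had 2.35, 2.44, 4.42, 2.55 and 5.12 CPM in MIA 1 to MIA 5, against 5.80, 5.82, 3.38, 1.76 and 5.52 CPM in CON 1 to CON 5. The groups covered nearly the same range, with CON 4 the lowest library and CON 1, CON 2 and CON 5 the highest. The log2 fold change was −0.40 ± 0.36 (SE; edgeR adjusted p = 0.577), and its 95% interval, −1.17 to 0.38, includes a 2-fold fall. Its ratio to S100a8 was less even than that of S100a9, at 0.12 to 0.33 in MIA and 0.095 to 0.25 in CON. The excluded libraries differed widely, with 5.57 CPM in MIA 6, 1.83 in MIA 7 and 3.92 in CON 6.

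Ngp, Camp and Ltf encode proteins of the secondary granule: neutrophilic granule protein, a relative of the cathelicidins, the precursor of the mouse cathelicidin peptide, and the iron-binding protein lactoferrin. None passed the threshold between MIA and CON. The promoters of the 3 genes, which lie on 1 chromosome, are shown because CON 5 and MIA 1 were the highest retained libraries for each of them; capitals mark the same letters as above.
Ngp promoter (chr9:110419558-110419857, + strand): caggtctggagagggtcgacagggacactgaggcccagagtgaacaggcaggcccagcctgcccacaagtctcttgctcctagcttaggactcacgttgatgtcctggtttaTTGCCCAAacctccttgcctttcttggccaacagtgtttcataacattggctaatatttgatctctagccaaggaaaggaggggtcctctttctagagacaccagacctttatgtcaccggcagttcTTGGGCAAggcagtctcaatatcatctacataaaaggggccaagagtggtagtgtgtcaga
Camp promoter (chr9:109849407-109849706, - strand): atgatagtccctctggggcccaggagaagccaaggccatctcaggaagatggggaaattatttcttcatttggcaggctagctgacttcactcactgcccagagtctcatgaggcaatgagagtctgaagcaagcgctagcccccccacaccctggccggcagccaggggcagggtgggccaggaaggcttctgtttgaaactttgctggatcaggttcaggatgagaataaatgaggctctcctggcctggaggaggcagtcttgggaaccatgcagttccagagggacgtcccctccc
Ltf promoter (chr9:111019042-111019341, + strand): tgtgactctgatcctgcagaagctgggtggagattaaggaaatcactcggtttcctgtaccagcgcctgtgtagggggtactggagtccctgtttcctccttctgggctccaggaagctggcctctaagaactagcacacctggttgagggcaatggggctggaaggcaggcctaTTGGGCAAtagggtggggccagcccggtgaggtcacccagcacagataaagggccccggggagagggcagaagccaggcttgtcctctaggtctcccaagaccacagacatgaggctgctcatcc
The Ngp promoter held the C/EBP-like letters at positions -138 and -11 and the Ltf promoter at -75, while neither set of letters was in the Camp window. TTGGGCAA, a match on the opposite strand, stood in both Ngp and Ltf. No promoter of the 9 genes held both motifs. Over all 11 promoters listed for the 9 genes, TTGCNNAA was in 5 and GAGGAAG in 3, a description with no test. Over all RefSeq promoters of this length, the shares were 10.8% and 13.6%. GAGGAAG was in promoters of 2 of the 9 genes, as the promoters listed for Ly6c2 overlap and hold the same sites.

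Ngp had 13.9, 8.33, 8.26, 2.22 and 5.19 CPM in MIA 1 to MIA 5, against 6.90, 5.02, 7.31, 7.56 and 17.5 CPM in CON 1 to CON 5. CON 5 and MIA 1 were high and MIA 4 was the lowest of all. Ltf had 7.65, 5.54, 7.07, 2.48 and 4.45 CPM in MIA, against 5.24, 2.77, 4.92, 5.62 and 8.14 CPM in CON. The same 2 libraries, CON 5 and MIA 1, were the highest retained ones. Camp had 2.75, 1.36, 1.56, 1.09 and 1.09 CPM in MIA, against 1.79, 1.02, 1.72, 0.94 and 6.85 CPM in CON. CON 5 was far above the other controls and MIA 1 above the other retained MIA libraries.

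The log2 fold changes were −0.23 ± 0.45 for Ngp, −0.65 ± 0.55 for Camp and 0.026 ± 0.33 for Ltf (SE; edgeR adjusted p = 0.831, 0.546 and 0.975). Without CON 5, that of Ngp was 0.18 and that of Camp 0.20, and without MIA 4 that of Ngp was 0.0085. The 95% intervals were −1.21 to 0.75 for Ngp, −1.83 to 0.53 for Camp and −0.68 to 0.73 for Ltf. In MIA 6 all 3 genes were above the retained MIA libraries, with 15.9 CPM of Ngp, 3.13 of Camp and 9.44 of Ltf. MIA 7 and CON 6 lay within the range of the retained libraries, at 6.78 and 5.91 CPM of Ngp, 1.52 and 1.10 of Camp, and 3.85 and 4.62 of Ltf.

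The granule genes and the S100 pair did not keep a fixed proportion. CON 2 had the highest S100a8 level of the 13 libraries and an Ngp to S100a8 ratio of 0.12, while CON 3, CON 4 and CON 5 had ratios of 0.42, 0.41 and 0.41. In the MIA libraries the ratio ran from 0.20 in MIA 4 to 0.70 in MIA 1. CON 5 was the highest of the 10 retained libraries for 6 of the 9 genes, and MIA 4 the lowest for 5 of them.

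**Figure D3:**
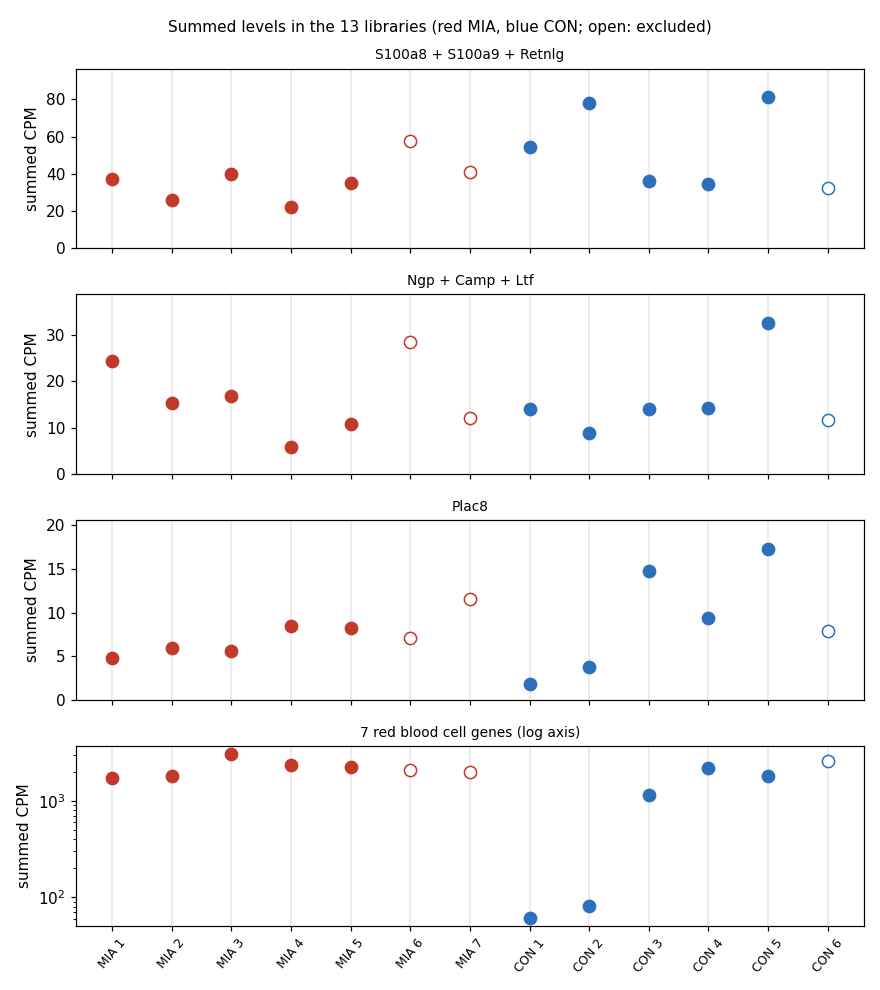
Summed level in CPM of the S100a8, S100a9 and Retnlg group, of the granule genes, of Plac8 alone and of 7 red blood cell genes (log axis) in each of the 13 libraries; open points are excluded libraries. CON 1 and CON 2 are far below the rest in the red blood cell genes and lowest in Plac8, while CON 2 is among the highest in the S100a8 group.

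Red blood cell transcripts were scarcest in 2 controls, CON 1 and CON 2, whose S100a8 and S100a9 levels were not low. Whether blood left in the unperfused brains, or another difference between the libraries, set these levels was not tested. The summed level of 7 red blood cell genes, globins among them, was 1743 to 3053 CPM in the retained MIA libraries, against 61.3 CPM in CON 1, 80.2 CPM in CON 2 and 1162 to 2197 CPM in CON 3 to CON 5. None of the 7 genes passed between the groups. S100a8, S100a9 and Retnlg together were at 54.5 and 77.9 CPM in CON 1 and CON 2, inside the span of 34.5 to 81.5 CPM of the other 3 retained controls. Without CON 1 and CON 2, the log2 fold change of S100a8 was −0.73 ± 0.30 and that of S100a9 −0.71 ± 0.31 (SE; edgeR adjusted p = 0.151 and 0.174).

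Plac8, a small cysteine-rich protein gene of myeloid cells, was the member that was lowest in those 2 controls. It had 4.77, 5.93, 5.61, 8.49 and 8.26 CPM in MIA 1 to MIA 5, against 1.79, 3.75, 14.8, 9.36 and 17.2 CPM in CON 1 to CON 5. The 5 MIA libraries lay between the 2 low and the 3 high controls. The log2 fold change was −0.51 ± 0.51 (SE; edgeR adjusted p = 0.629). Without CON 1 and CON 2 it was −1.07 ± 0.24 and passed (edgeR adjusted p = 0.0109; 5.38% of all genes passed as lower in that fit). With the excluded libraries added to that fit, which had 7.10 CPM in MIA 6, 11.6 in MIA 7 and 7.85 in CON 6, it was −0.74 ± 0.25 and did not pass (edgeR adjusted p = 0.122).

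Ly6c2 encodes a GPI-anchored surface protein of the Ly6C antigen, by which classical mouse monocytes are recognised. It had the lowest log2 fold change of the 9 genes, −1.47 ± 0.46 (SE; 95% interval −2.46 to −0.48), and did not pass (edgeR adjusted p = 0.0600). Its levels were 0.83, 0.54, 1.05, 0.79 and 1.09 CPM in MIA 1 to MIA 5, against 2.62, 0.87, 3.76, 1.12 and 3.60 CPM in CON 1 to CON 5. CON 1, CON 3 and CON 5 were high, CON 2 lay within the MIA range and CON 4 just above it. The gene passed in DESeq2 (adjusted p = 0.0177), without CON 1 and CON 2 (−1.72 ± 0.44; edgeR adjusted p = 0.0237), without CON 2 alone (edgeR adjusted p = 0.0291; 2.93% of all genes passed as lower) and without CON 4 alone (edgeR adjusted p = 0.0409). With all 13 libraries, where MIA 6 had 1.07 CPM, MIA 7 1.91 and CON 6 1.91, it did not pass (edgeR adjusted p = 0.100).

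Ly6c1, the neighbouring gene for a near-identical Ly6C protein that brain endothelium expresses, moved the other way. It averaged 82.8 ± 21.9 CPM in MIA and 31.5 ± 3.63 CPM in CON (SD, n = 5 each), a log2 rise of 1.39 ± 0.17 (SE; edgeR adjusted p = 0.000343). Ly6c2 was 0.90 to 1.43% of the summed level of both genes in MIA and 3.10 to 11.3% in CON. In the GENCODE M21 transcripts, 13.9% of the distinct 50-base windows of Ly6c2 also occur in Ly6c1, and the deposited Ly6c2 value was not whole in 13 of 13 libraries, so reads of this gene were counted in fractions. The Ly6c2 level is uncertain for that reason, and the part of the counting in its difference was not tested. Ccr2 also had no whole value in any library, so its level is uncertain too. The other 7 members had whole values throughout and shared no window with another gene.

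**Figure D4:**
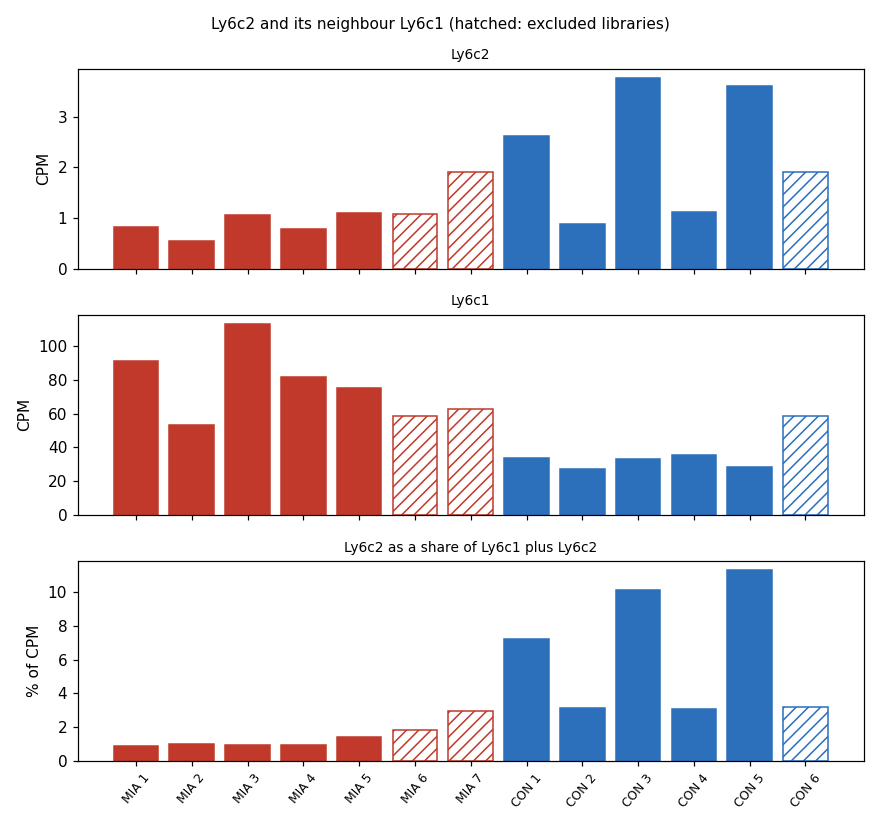
Level in CPM of Ly6c2 and of Ly6c1, and Ly6c2 as a percentage of both together, in the 13 libraries; hatched bars are excluded libraries. Ly6c1 is higher in every retained MIA library than in every retained CON library, and the Ly6c2 share is 0.90 to 1.43% in retained MIA and 3.10 to 11.3% in retained CON libraries; the excluded CON 6 has a Ly6c1 level inside the MIA range.

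Ccr2, the receptor through which monocytes follow the chemokine Ccl2, did not pass the threshold. Ccr2 had 4.90, 3.45, 3.81, 1.99 and 5.01 CPM in MIA 1 to MIA 5, against 2.73, 4.55, 4.05, 3.31 and 7.45 CPM in CON 1 to CON 5. The groups overlapped over most of their range, with CON 5 high and MIA 4 low. The log2 fold change was −0.20 ± 0.32 (SE; edgeR adjusted p = 0.777; 95% interval −0.90 to 0.49). MIA 6, MIA 7 and CON 6 had 3.42, 4.17 and 4.55 CPM.

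Per length the S100 pair far exceeded the other members. Per kilobase of merged GENCODE M21 exons, S100a9 stood at 24.9 ± 6.69 and S100a8 at 22.8 ± 5.19 CPM per kb in MIA, against 45.0 ± 16.4 and 41.7 ± 18.4 in CON (SD, n = 5 each). Ngp, Retnlg and Plac8 followed at 6.20 ± 3.55, 5.69 ± 2.19 and 4.15 ± 1.05 CPM per kb in MIA, against 7.25 ± 4.03, 7.52 ± 3.07 and 5.89 ± 4.21 in CON. Neighbours within these groups did not differ beyond their SD. Camp was at 2.07 and Ltf at 1.58 CPM per kb in MIA, against 3.25 and 1.55 in CON, and Ccr2 and Ly6c2 were under 1 in both groups.

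Other genes of neutrophils ranged widely in level. Ly6g, whose protein is the usual surface marker of mouse neutrophils, was at 0.39 CPM or less in the 13 libraries and had no count in 8 of them. Of 23 further neutrophil genes, 16 were tested, of which 1 rose and 1 fell, where 10.3% of all genes passed either way. They had a median log2 fold change of −0.49 beside −0.0085 over all genes tested. Pglyrp1, a peptidoglycan-binding protein of granules, rose by 1.49 ± 0.25 (log2 and SE; edgeR adjusted p = 0.00308), and Csf3r, the receptor for granulocyte colony-stimulating factor, fell by 0.64 ± 0.11 (log2 and SE; edgeR adjusted p = 0.00265). Pglyrp1 is also expressed by brain endothelium and Csf3r by microglia, and neither passed with all 13 libraries (edgeR adjusted p = 0.0549 and 0.0797). Cxcr2, the chemokine receptor of neutrophils, was chosen after its values were seen. It averaged 7.29 ± 1.16 CPM in MIA and 11.8 ± 4.21 CPM in CON (SD, n = 5 each), and did not pass (edgeR adjusted p = 0.0687). The retained groups did not overlap, but MIA 6 and MIA 7, at 9.05 and 11.6 CPM, lay above the lowest control, CON 3, at 8.63 CPM, and CON 6 had 10.4 CPM.

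Of 18 further monocyte genes, all tested, 2 rose and 2 fell, where 5.75% of all genes passed as higher and 4.58% as lower. Those that rose were Ly6c1, which brain endothelium expresses, and Itga4. Itga4, an integrin chain, rose by 0.85 ± 0.19 (log2 and SE; edgeR adjusted p = 0.0108). Those that fell were Itgal, the integrin chain of LFA-1, by 0.69 ± 0.13, and Ms4a4c, a membrane protein gene of monocytes, by 1.25 ± 0.29 (log2 and SE; edgeR adjusted p = 0.00428 and 0.0148). Ms4a4c averaged 1.10 ± 0.24 CPM in MIA and 2.63 ± 0.32 CPM in CON (SD, n = 5 each), and these groups did not overlap. With MIA 6 at 1.79 CPM, MIA 7 at 2.02 and CON 6 at 1.80 they did, and Ms4a4c did not pass with all 13 libraries (edgeR adjusted p = 0.0687). Ly6c1, Itga4 and Itgal passed with all 13 libraries (edgeR adjusted p = 0.0201, 0.0340 and 0.0323), but not with all 13 without CON 1 and CON 2. F13a1, the most abundant of these genes and also a gene of border macrophages, was at 389 ± 158 CPM in MIA and 401 ± 50.4 CPM in CON.

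Among 14 ligands and receptors of myeloid recruitment, 11 were tested, and Cxcl12 rose and Tlr4 fell, where 10.3% of all genes passed either way. Both also passed with all 13 libraries (edgeR adjusted p = 0.0462 and 0.0364), but not with all 13 without CON 1 and CON 2. Cxcl12, which holds granulocytes in the marrow through CXCR4, averaged 170 ± 31.1 CPM in MIA and 81.9 ± 21.2 CPM in CON (SD, n = 5 each; edgeR adjusted p = 0.00388). Tlr4, a receptor for calprotectin, averaged 64.5 ± 10.6 CPM in MIA and 101 ± 21.1 CPM in CON (edgeR adjusted p = 0.0118). The endothelial markers also passed as higher and 9 of 10 microglial markers as lower in these libraries. The part of those shifts in the levels of Cxcl12 and Tlr4 was not tested. Ccl2, the main ligand of CCR2, averaged 592 ± 95.8 CPM in MIA and 361 ± 273 CPM in CON (edgeR adjusted p = 0.624). Ccl7, another ligand of CCR2, averaged 406 ± 85.6 CPM in MIA and 249.03 ± 190.2 CPM in CON (edgeR adjusted p = 0.649). CON 1 and CON 2 had 33.0 and 96.3 CPM of Ccl2, below the other 11 libraries.

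Other blood and border cells were covered by 3 further lists. Of 11 lymphocyte genes 4 were tested and 1 fell, Cd79b, which microglia also express (edgeR adjusted p = 0.00244). The summed level of the lymphocyte genes was 40.8 to 50.4 CPM in MIA and 59.1 to 78.1 CPM in CON, most of it Cd79b, and Cd3e of T cells was at 0.23 CPM or less in all 13 libraries. None of 4 tested genes among 8 of platelets and mast cells passed, with a summed level of 7.14 to 8.05 CPM in MIA and 6.55 to 11.0 CPM in CON. None of 7 border-associated macrophage genes passed, and their summed level was 735 to 1815 CPM in MIA and 1058 to 1804 CPM in CON. Of all 27 genes called in these 9 lists, none passed in the fit of all 13 libraries without CON 1 and CON 2, in which 0.561% of all genes passed.

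Some genes outside these lists followed single members across the 13 libraries, as a description of libraries that share depth and makeup. S100a8 was most like S100a9 (Pearson r of log2 CPM = 0.95), then Olfml2b and Stfa1, a stefin of neutrophils (r = 0.92 for each). Ngp and Ltf were most like each other (r = 0.92), and Camp came closest to Timm17b (r = 0.95) and Capn1 (r = 0.87). Plac8 was most like Zyx (r = 0.92), Ly6c2 most like Zbtb25 (r = 0.90), Retnlg most like Zc3h6 (r = 0.87) and Ccr2 most like Rpap1 (r = 0.86).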

How the data were processed

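Libraries were made with a modified Smart-Seq2 protocol, per the labels' protocols. The submitters' processing notes name STAR, RSEM and DESeq2; the sources used here give no versions, roles or genome build. The deposited table holds the authors' expected counts, estimated per gene, and 20.6% of the nonzero values were not whole; they were rounded for the tests. Gene symbols were matched by Ensembl ID, exactly for 54349 of 55487 genes and for 55141 with or without the version. The 10 retained libraries were tested with edgeR 4.0.16 (R 4.3.3): low-count filter, TMM scaling, robust quasi-likelihood test on group, Benjamini-Hochberg threshold 0.05. The scripts were tested on simulated data. CPM values are TMM-scaled over the 13 libraries, with an SD over the 5 retained ones per group; a floor of 3 counts is 0.0874 to 0.117 CPM, for counting error only. The closest libraries of a group differed by a chi-square of 14.6 per degree of freedom, and none were identical.

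The 9 genes and the lists of other marker genes were chosen with earlier results of these data known. From each list except those of microglia and endothelium, the text names genes past the threshold, up to 4 by size of change. It names the most abundant ones where a result turns on them, and for likeness the leading genes by Pearson r. Of the microglial markers only Siglech is named by its change, and the endothelial markers are given by count and sum. Promoters are from RefSeq. GENCODE M21, used for lengths and shared windows, may not be the authors' annotation. Alternatives were other scalings and filters, DESeq2 1.42.0, limma-voom (limma 3.58.1), a replicate block, all 13 libraries, fits without CON 1 and CON 2, and leaving out each library.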

Additional observations from a re-analysis of the deposited data

Results flagged for a closer look

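In groups of 5 retained libraries, a library counted as far from the others where its gap to the nearest one, divided by the range of the group, passed Dixon's critical value of 0.71. Of 18 groups tested (9 genes in MIA and CON), 3 passed, and chance flags about 1 in 20 groups. Ngp in CON 5, at 17.5 CPM, lay far above the other 4 controls. Camp was apart in both groups, at 2.75 CPM in MIA 1 and at 6.85 CPM in CON 5.

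Among the excluded libraries, Ltf stood at 9.44 CPM in MIA 6, above the highest retained control, CON 5, at 8.14 CPM. No comparison of the retained libraries uses that value.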

How the results depend on the processing

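The number of the 9 genes that passed was 3 in DESeq2, 2 without CON 1 and CON 2 and 1 with the replicate block. It was 0 to 3 when each library was left out in turn and 0 in the other fits. Of all genes, 2162 passed in DESeq2 (1000 lower), 1966 without CON 1 and CON 2 (866 lower) and 1524 with the replicate block (624 lower). The share of all genes that passed as lower was 6.46% in DESeq2 and 5.38% without CON 1 and CON 2. The counts over all genes were 659 (424 higher, 235 lower) with all 13 libraries and 90 (53 higher, 37 lower) with all 13 without CON 1 and CON 2, against 1602 (892 higher, 710 lower) in the 10 retained libraries. Leaving out 1 library gave 1037 to 2263 genes, 672 to 1238 higher and 365 to 1025 lower. Of the other marker genes, 27 passed in the retained libraries, 24 to 31 with 1 library left out, 13 with all 13 libraries and 0 with all 13 without CON 1 and CON 2. The log2 fold change of Ngp turned to 0.048 with all 13 libraries, and ran from −0.56 to 0.18 with 1 library left out. With 1 library left out, that of Camp ran from −0.95 to 0.20, that of Ccr2 from −0.34 to 0.066 and that of Ltf from −0.14 to 0.23. That of Ltf turned to −0.21 without CON 1 and CON 2 and −0.012 with all 13 without those. The leave-outs that turned a sign were CON 5 for Camp and Ccr2, CON 5 and MIA 4 for Ngp, and CON 2, CON 3, MIA 1 and MIA 3 for Ltf. The cause was not tested. Same-numbered MIA and CON libraries deviated together with a correlation of 0.058 to 0.30, and 1 of 5 numbers matched its own best, so the numbers were not taken to pair the libraries; with the replicate block the adjusted p of S100a9 was 0.0441 (edgeR). Depth limits the scarce members, with Ly6c2 at 14.2 counts in MIA 2.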

Other observations

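Genes that neutrophil precursors express for their primary granules, the first granules to form, were near the detection floor in many libraries and were chosen here after their values were seen. Mpo, myeloperoxidase, had 0.53, 0, 0, 0 and 1.16 CPM in MIA 1 to MIA 5, against 3.55, 0, 0.26, 2.10 and 4.70 CPM in CON 1 to CON 5. The difference did not pass (edgeR adjusted p = 0.321), and the excluded libraries ran the other way, with 1.40 CPM in MIA 6, 5.30 in MIA 7, the highest of the 13 libraries, and 0 in CON 6. Elane, neutrophil elastase, had no count in 4 of the 5 retained MIA libraries and in 1 of the 5 retained CON libraries, while it had 0.62 CPM in MIA 6, 1.09 in MIA 7 and no count in CON 6. Among the other neutrophil genes, Prtn3 and Ctsg had other patterns. Prtn3 had a count in all 13 libraries, with 1.13 CPM in CON 2, 0.70 in MIA 2 and 0.83 in MIA 4, where Mpo had none (edgeR adjusted p = 0.381). Ctsg had 0.33 CPM in MIA 1 and 0.35 in CON 1, and no count in CON 2, CON 3, MIA 2 and MIA 3. Chil3, a chitinase-like gene of myeloid cells, stood at 18.3 CPM in CON 1 and at 2.94 CPM or less in the other 12 libraries (edgeR adjusted p = 0.271).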
